A study of Homo sapiens with 8 samples.

Results

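At 2 h after doxycycline was added, 5585 regions of the genome were called as ChIP-seq peaks of wild-type dnTCF1E (dnTCF1EWT), against 1907 regions in the same cell line without doxycycline. The regions described here are the 5507 of those 5585 peaks (98.6%) that had no base in common with any 0 h peak, called new sites from here on. The remaining 78 peaks (1.40%) overlapped a 0 h peak. They correspond to 79 of the 1907 0 h peaks (4.14%). The split used the coordinates of the peaks alone.

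The study induced N-terminally FLAG-tagged dnTCF1E in DLD-1 cells, a human colon cancer line with strong endogenous Wnt signaling, and mapped the tagged protein by ChIP-seq with anti-FLAG beads. Both conditions compared here are the dnTCF1EWT clonal line, grown with blasticidin and zeocin in medium with doxycycline-free serum. The 2 h sample received doxycycline at 1 ug/mL for 2 h, and the 0 h sample received none. Cells were treated and processed in duplicate, and the duplicates were pooled before peaks were called, so each condition is 1 list and no value below has a replicate spread. A single clone stands for the genotype. A parallel line carries dnTCF1Emut, in which the C-clamp is mutated, and both lines were also induced for 9 h. The peak lists do not give sequencing depth, which is unknown here, so the size of a list and its depth cannot be told apart.

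LEF/TCF proteins are the DNA-binding end of the canonical Wnt pathway. Their HMG box recognizes the Wnt response element (WRE), and β-catenin bound to their N terminus recruits co-activators. The E-tail isoforms of TCF1 carry a further DNA-binding domain, the C-clamp, which recognizes GC-rich Helper sites. A dominant-negative TCF1 lacks the β-catenin binding region and therefore occupies sites without bringing β-catenin. At 0 h no tagged protein should be present, and the 0 h list therefore serves as the background of the assay.

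The files count 3 motifs in each peak, on either strand. The WRE is CTTTG followed by 2 bases that are each A or T and then by C or G. The Helper site is A or G followed by CCGCC, and the short Helper site is A or G followed by CCG, so every Helper site also holds a short Helper site. To show what these motifs look like in a bound promoter, 3 promoters are printed, each from 250 bases before to 50 bases after the transcription start site (TSS). They belong to the genes among the 15 highest-scoring new promoter sites whose peak spanned the TSS and that have 1 promoter in the RefSeq table (GRCh38.p14). The peaks are on hg19, and the match was made by gene symbol. Capitals mark WRE and Helper matches.
SP5, chr2:170715087-170715386, plus strand: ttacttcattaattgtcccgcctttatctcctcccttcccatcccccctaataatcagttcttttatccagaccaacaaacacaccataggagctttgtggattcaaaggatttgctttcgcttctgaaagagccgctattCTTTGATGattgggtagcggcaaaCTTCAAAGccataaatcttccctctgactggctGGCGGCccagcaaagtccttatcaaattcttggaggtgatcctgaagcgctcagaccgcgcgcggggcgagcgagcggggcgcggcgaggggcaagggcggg
ING4, chr12:6663070-6663369, minus strand: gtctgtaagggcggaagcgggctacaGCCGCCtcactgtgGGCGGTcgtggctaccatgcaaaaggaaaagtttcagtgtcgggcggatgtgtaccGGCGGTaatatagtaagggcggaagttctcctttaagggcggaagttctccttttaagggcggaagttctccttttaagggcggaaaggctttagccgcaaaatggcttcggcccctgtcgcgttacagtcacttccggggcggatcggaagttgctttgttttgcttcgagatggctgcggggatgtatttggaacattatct
FKBP3, chr14:45134432-45134731, minus strand: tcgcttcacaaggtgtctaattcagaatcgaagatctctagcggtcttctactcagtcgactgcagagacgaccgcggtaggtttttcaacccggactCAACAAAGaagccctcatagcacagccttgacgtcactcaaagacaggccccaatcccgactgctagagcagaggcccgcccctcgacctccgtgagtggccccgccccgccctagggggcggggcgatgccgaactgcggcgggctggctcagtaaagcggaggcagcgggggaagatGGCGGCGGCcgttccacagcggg
The SP5 promoter holds 2 WREs, at -109 to -102 and -85 to -78 from the TSS, and a Helper site at -52 to -47. The ING4 promoter has no WRE and holds 3 Helper sites, at -224 to -219, -210 to -205 and -154 to -149. The FKBP3 promoter holds a WRE at -152 to -145 and a pair of overlapping Helper sites just after the TSS. The FKBP3 peak itself was counted with 1 WRE and 0 Helper sites, so that pair belongs to the promoter window and not to the peak. Among all 35116 RefSeq promoter windows of this length, 6.62% hold a WRE, 41.6% a Helper site and 78.3% a short Helper site, so a Helper match in a promoter window is common. Of the new sites ranked within the top 1000, 19 spanned a TSS, and 9 of those belonged to genes with a single promoter window. A WRE was present in 3 of these 9 windows and a Helper site in 4.

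Peak strength was read from the MACS peak score, which rises as the p-value of the peak falls. Both lists start at a score of 50.01. The new sites had a median score of 59.0 and reached 3218, whereas the highest 0 h peak scored 214. A total of 368 new sites scored above every 0 h peak. At a score of 100 or more there were 921 new sites and 33 peaks at 0 h. The peak at rank 1000 scored 93.4 at 2 h and 55.3 at 0 h. Peak scores also rise with depth, whose part in this difference was not tested.

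**Figure D1:**
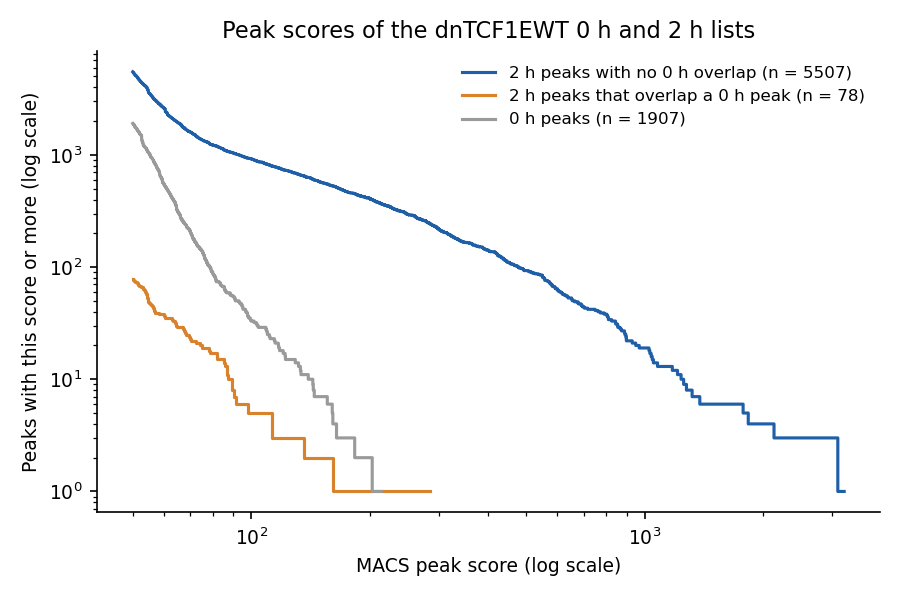
Number of peaks (vertical axis, log scale) at or above each MACS peak score (horizontal axis, log scale) for the 5507 new 2 h sites, the 78 2 h peaks that overlap a 0 h peak and the 1907 0 h peaks. The 0 h curve ends at a score of 214, and 368 new sites lie beyond it.

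Scores at regions listed at both times moved in either direction. Of the 78 shared 2 h peaks, 38 scored higher at 2 h and 40 scored lower, and the median ratio of 2 h to 0 h score was 0.992, with a range from 0.486 to 2.64. Their median score was 57.7 at 2 h and 60.5 at 0 h. A WRE was present in 8 of them and an Alu element in 30. The shared peaks with a 2 h score of 100 or more numbered 5, and none of these held a WRE. The strongest lay in intron 1 of NPAS4, an activity-regulated transcription factor gene, at chr11:66189057-66189501, and scored 284 at 2 h and 121 at 0 h. This region was the only one of the 5 that a dnTCF1Emut 0 h peak also covered, so it was listed in both uninduced lines. It was covered by dnTCF1Emut 2 h and dnTCF1EWT 9 h peaks as well. A peak in exon 30 of MUC2, the secreted mucin of goblet cells, scored 161 and 134. The peaks nearest to CTDP1, LOC100506388 and PPP2R3B scored 136, 113 and 113 at 2 h against 51.4, 81.2 and 58.2 at 0 h. The strongest 0 h peaks were nearest to LINC00273 (214), SNORD119 (203), MIR3687 (183), LOC100129534 (165) and LRCH3 (161), and the first of these lay in a ribosomal RNA repeat.

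**Figure D2:**
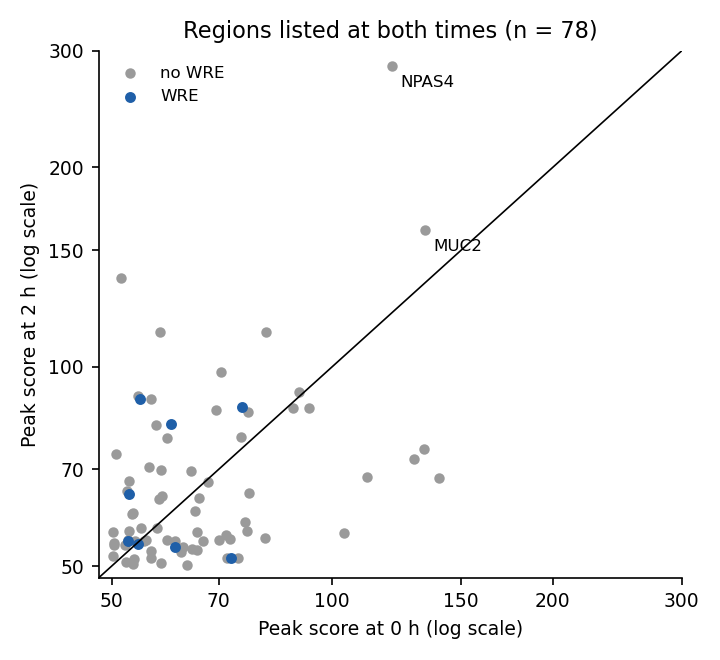
Peak score at 0 h (horizontal axis) against peak score at 2 h (vertical axis), both on log scales, for the 78 regions listed at both times; the line marks equal scores and blue points hold a WRE. Points lie on both sides of the line, 38 above and 40 below, with NPAS4 the highest at 2 h.

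The strongest new sites were mostly distal, and 8 of the top 15 held a WRE. The highest score, 3218, belonged to a 1520-bp peak in intron 10 of NELF at chr9:140344686-140346205, which held 6 WREs. Ranks 2 and 3, with the same score of 3100, were 1 region counted on both sex chromosomes, a pseudoautosomal sequence 149268 bp from ASMT that held 54 short Helper sites and no WRE. The list contains 1 such duplicated pair. The peak in intron 1 of CDX2, which encodes an intestinal homeodomain factor, scored 1835 at chr13:28539957-28540612, lay 3221 bp from the TSS, and held 1 WRE and 2 Helper sites. A peak 54322 bp upstream of SIRPA, a myeloid inhibitory receptor gene, scored 1321 and held 11 WREs, the most of any of the top 15.

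Several of the other top 15 sites lacked a WRE. The peak in intron 5 of LINC00565 scored 2134 and that at the 3′ end of AMZ1 scored 1781, and neither held a WRE. Peaks in intron 2 of the gene around MIR4714 (1239), in intron 4 of the transcript over the GADD45B site (1177) and in an AluSx element near DTYMK (1079) also lacked one, although the first and second of these each held 2 Helper sites. The paper describes its GADD45B reporter region as holding 1 WRE, whereas the count here is of the full WRE form given above. Peaks near LTBP2, RPTOR, ATP6AP1L and TMEM177 scored 1382, 1278, 1257 and 1053 and held 2, 2, 1 and 5 WREs. With the ASMT region counted on both chromosomes, all 15 of these sites were also covered by a dnTCF1EWT 9 h peak, and 10 of the 15 by a dnTCF1Emut 2 h peak.

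New promoter sites, centered within 2 kb of a TSS, included the Wnt targets SP5 and LGR5. The peak over the SP5 start site, a Wnt-induced transcription factor gene, scored 1213 at chr2:171571309-171572054 and held 3 WREs and 5 Helper sites over its 746 bp. LGR5, the R-spondin receptor that marks crypt stem cells, had a peak in intron 1, 931 bp from the TSS, that scored 809 and held 1 WRE and 3 Helper sites. TMEM177 (1053), FGGY (704), SLC7A8 (614), FKBP3 (439) and DISC1 (438) each had a new promoter site with at least 1 WRE.

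The other 8 of the 15 strongest promoter sites held no WRE and at least 1 Helper site each. RHEB, a GTPase that activates mTORC1, had a peak in its 5′ UTR that scored 405 and held 12 Helper sites. INTS4L2 and INTS4L1, near-identical copies to which reads may align ambiguously, scored 679 and 576 with 10 and 8 Helper sites. A site in intron 1 of JHDM1D, a histone demethylase gene, scored 387 with 9 Helper sites. The ING4 peak, centered 48 bp upstream of the TSS of this tumor suppressor, scored 477 with 3 Helper sites, and the Hippo effector YAP1 scored 494 with 1. CDCA7 (466) and TGIF1 (324), a TGF-β co-repressor gene, held 1 and 3. Of these 15 promoter sites, 12 held a Helper site, 7 held a WRE, 14 were covered at 9 h and 5 were covered by a dnTCF1Emut 2 h peak.

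Across the stronger sites, WREs were far more frequent at 2 h than at 0 h. The comparison took the 994 new sites among the 1000 highest-scoring 2 h peaks and the 1000 highest-scoring 0 h peaks. The study used this limit for much of its 2 h analysis, and its use at 0 h was a choice made here. It kept 1000 of 5585 peaks at 2 h but 1000 of 1907 at 0 h. A WRE was present in 506 of the 994 new sites (50.9%, Wilson 95% interval 47.8 to 54.0%) and in 68 of the 1000 0 h peaks (6.80%, 5.4 to 8.53%). The odds ratio was 14.2 (two-sided Fisher's exact test, Benjamini-Hochberg adjusted over 18 shares, adjusted p = 2.78e-113). Peaks are not replicates, so this test and those below compare 2 lists, and the intervals cover counting error only. New sites were longer, with a median of 431 bp against 198 bp, and per kilobase they held 1.73 WREs against 0.302. Within strata of peak length the odds ratio was 6.18, in strata of length and GC content together it was 6.21, and over every listed peak it was 3.27.

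Helper sites were also more frequent. A Helper site was present in 193 new sites (19.4%, 17.1 to 22.0%) and in 42 of the 0 h peaks (4.20%, 3.12 to 5.63%), an odds ratio of 5.50 (Fisher's exact test, adjusted p = 8.05e-27). Short Helper sites were present in 748 new sites (75.3%, 72.5 to 77.8%) and 478 of the 0 h peaks (47.8%, 44.7 to 50.9%), which gave 3.32 as odds ratio (Fisher's exact test, adjusted p = 5.39e-36). The Helper odds ratio was 2.31 in strata of length, 12.6 in strata of GC content and 1.96 over every listed peak. For the short Helper site these values were 2.03, 6.22 and 1.39. Outside annotated repeats the Helper comparison did not pass the threshold, at an odds ratio of 1.81 (Fisher's exact test, adjusted p = 0.0986), nor did it among peaks with a score of 100 or more, where the odds ratio was 1.11 (Fisher's exact test, adjusted p = 1).

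Promoter positions were more frequent at 2 h in the same comparison, but not under every alternative. Centers within 2 kb of a TSS made up 95 of the 994 new sites (9.56%, 7.88 to 11.5%) and 22 of the 0 h peaks (2.20%, 1.46 to 3.31%), an odds ratio of 4.70 (Fisher's exact test, adjusted p = 2.46e-12). Outside repeats the odds ratio was 1.29 (Fisher's exact test, adjusted p = 1), and among peaks with a score of 100 or more it turned to 0.766 (Fisher's exact test, adjusted p = 0.952), where the 0 h list held 33 peaks. By the files' annotation, promoter-TSS sites were 37 against 6 (Fisher's exact test, adjusted p = 1.38e-06) and exonic sites 11 against 1 (adjusted p = 0.00532). In strata of peak length neither passed, with Mantel-Haenszel odds ratios of 1.90 and 3.04. The promoter-TSS share did not pass outside repeats either (odds ratio 1.18), nor the exon share over every listed peak (2.43) or in the top 500 (6.07). Introns held 41.4% of the new sites and 41.1% of the 0 h peaks. Intergenic regions held 51.2% and 56.3% (odds ratio 0.815, Fisher's exact test, adjusted p = 0.0370). The intergenic difference did not pass Fisher's exact test over every listed peak (0.926, adjusted p = 0.247), in the top 500 (0.808, adjusted p = 0.149) or without peaks that overlap a dnTCF1Emut 0 h peak (0.823, adjusted p = 0.0513). The median distance to the nearest TSS was 38.7 kb and 40.5 kb.

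SINE, LINE, satellite and simple repeats were less frequent among the new sites of the top 1000. SINE elements covered the center of 59 new sites (5.94%, 4.63 to 7.58%) and of 485 0 h peaks (48.5%, 45.4 to 51.6%), an odds ratio of 0.0670 (Fisher's exact test, adjusted p = 3.18e-110). The size of this difference depended on length and rank, with a SINE odds ratio of 0.304 in strata of length, 0.350 in strata of length and GC content, and 0.863 over every listed peak, where the shares were 49.7% and 53.3%. All 485 at 0 h were Alu elements, 9 of them with a WRE. At 2 h they were 32 Alu elements, 1 with a WRE, and 27 of the older MIR family, 16 with a WRE. LINE elements held 14.8% of the 0 h peaks and 6.64% of the new sites (Fisher's exact test, adjusted p = 9.75e-09) and simple repeats 4.0% and 0.402% (adjusted p = 3.19e-08). Satellites took 23 of the 0 h peaks and 0 of 994 new sites, which allows a share of up to 0.302% by a limit of 3 counts (Wilson upper bound 0.385%). Over every listed peak the odds ratios were 0.515 for LINE, 0.394 for simple repeats and 0.0567 for satellites, and LINE stood at 0.289 in strata of length. Among peaks with a score of 100 or more, the lower SINE and LINE shares were not seen. SINE took 49 of 921 new sites and LINE 60, against 0 of 33 0 h peaks for each. Simple repeats there took 4 new sites against 6 0 h peaks, and satellites 0 against 4.

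LTR elements took similar shares, 106 new sites (10.7%) and 115 0 h peaks (11.5%), which gave 0.919 as odds ratio (Fisher's exact test, adjusted p = 0.731). A WRE was present in 56.6% of the LTR sites at 2 h and in 7.83% of those at 0 h. The ERVK family supplied 40 new sites, 29 with a WRE, against 4 peaks at 0 h. MER11A, an ERVK long terminal repeat, alone held 16 new sites, of which 15 carried a WRE. These elements were singled out after their values were seen.

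**Figure D3:**
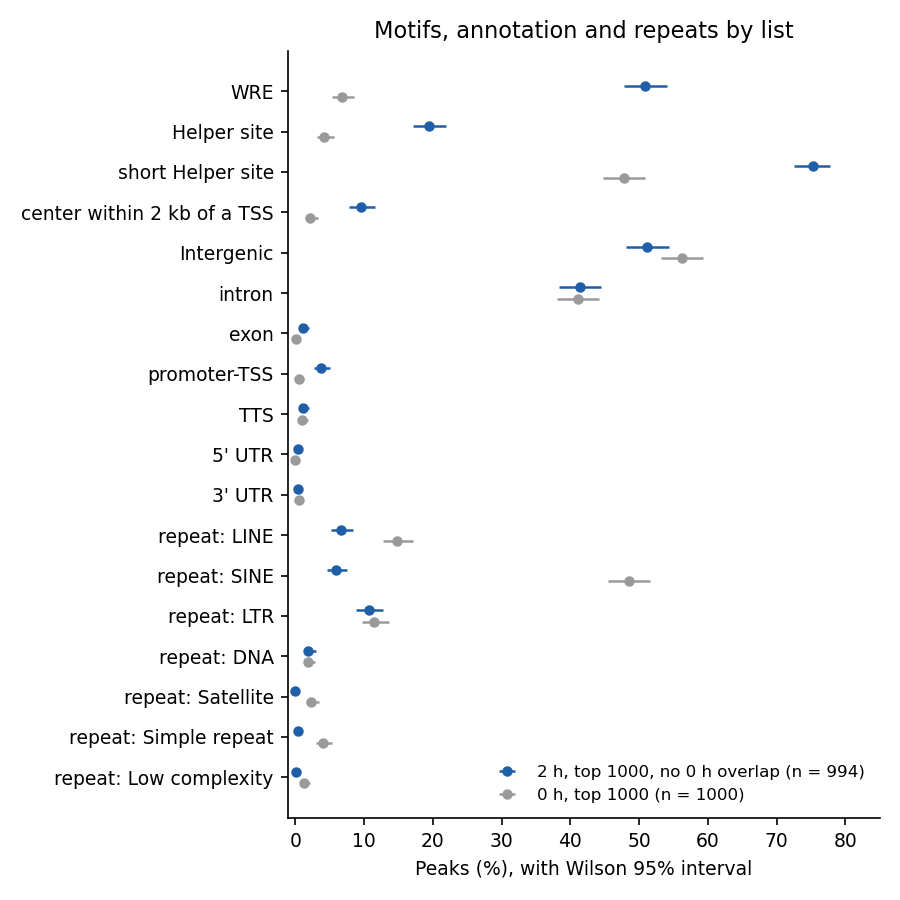
Share of peaks in percent (horizontal axis) that hold each motif or fall in each annotation or repeat class (vertical axis), for the 994 new sites of the 2 h top 1000 (blue) and the top 1000 0 h peaks (gray); bars are Wilson 95% intervals for counting error. The WRE stands at 50.9% against 6.80% and SINE at 5.94% against 48.5%.

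Motif content followed peak score down the list. A WRE was present in 56.6% of the new sites ranked 1 to 250, in 50.4% of those ranked 251 to 500 and in 48.3% of those ranked 501 to 1000. The share was 24.8% for ranks 1001 to 1500, then 10.6% for ranks 1501 to 2000, and it was 5.73% over ranks 3001 to 5585. The whole 0 h list stood at 5.66%. SINE content ran the other way. It was 2.01% over the first 250 ranks, 35.1% over ranks 1001 to 1500 and 65.0% over ranks 3001 to 5585, beside 53.3% of the 0 h list. Helper sites fell from 26.9% of the first 250 ranks to 3.69% at ranks 3001 to 5585, against 3.83% of the 0 h list. Coverage by a 9 h peak fell from 75.9% to 5.30% over the same ranks, and 8.34% of the 0 h peaks were covered. The median length also fell from 545 to 162 bp over those ranks, and its part in these shares was not tested.

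**Figure D4:**
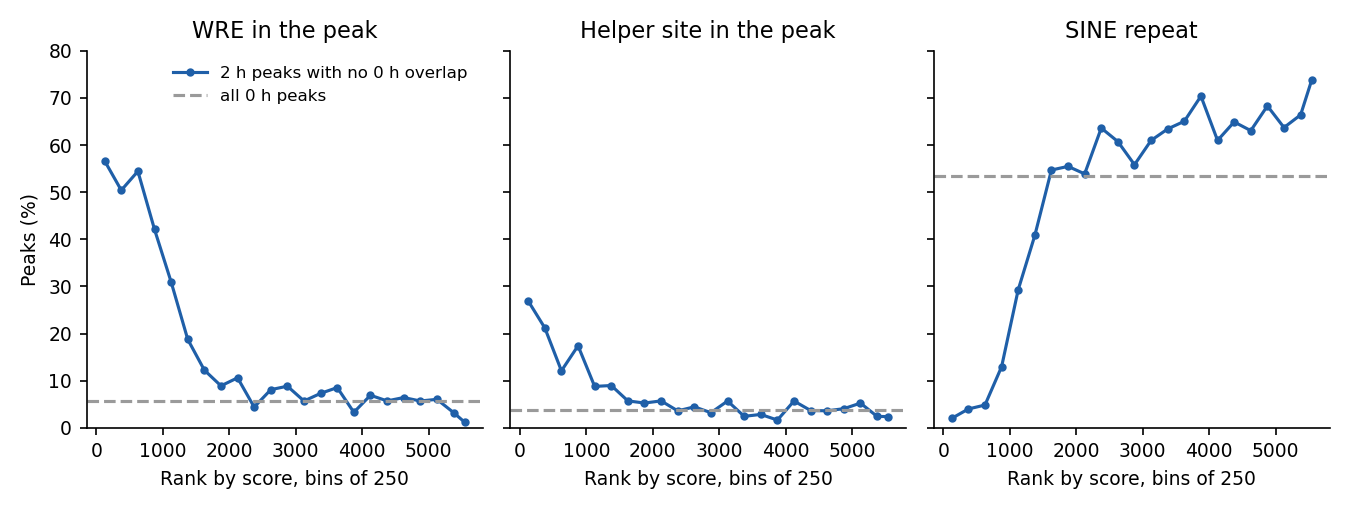
Share of new 2 h sites in percent (vertical axis) that hold a WRE, a Helper site or lie in a SINE, in bins of 250 ranks by score (horizontal axis); the dashed line is the share over all 1907 0 h peaks. The WRE curve starts at 56.6% and reaches the dashed line at 5.66% in the lower ranks, while the SINE curve rises past its line at 53.3%.

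Within the 994 stronger new sites, 426 held a WRE without a Helper site, 113 a Helper site without a WRE, 80 both and 375 neither. Sites with a Helper site alone had a median score of 224, against 171 for a WRE alone, 192 for both and 147 for neither. They also lay closer to genes, with 28.3% centered within 2 kb of a TSS, against 4.23% of the sites with a WRE alone. Of the 95 promoter sites, 54.7% held a Helper site and 40.0% a WRE, whereas of the 899 other sites 15.7% and 52.1% did. Coverage by a dnTCF1Emut 2 h peak was 17.7% for the Helper-alone sites and 49.3% for the WRE-alone sites, and coverage by a 9 h peak was 61.1% and 47.4%. The Helper-alone sites had a median GC content of 50.9% against 42.5%, and the part of base composition in these shares was not tested.

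Sites with more WREs scored higher. The median score was 159 over 488 sites without a WRE, 166 over 312 sites with 1, 184 over 147 sites with 2 and 325 over 47 sites with 3 or more. Median lengths over the same groups were 417, 432, 453 and 545 bp, so longer peaks and more matches went together, and the part of length in the scores was not tested. A 9 h peak covered 44.9% of the sites without a WRE and 76.6% of those with 3 or more, and a dnTCF1Emut 2 h peak covered 28.7% and 66.0%.

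The new sites were nearest to 4246 genes and the 0 h peaks to 1694, of which 590 were common to both (13.9% of the first and 34.8% of the second). A single new site was assigned to 3303 genes, and 19 genes had 5 or more. RORA, which encodes a nuclear receptor, ZNF703 and EFNA5, an ephrin ligand gene, had 7 each, followed by FLRT2, TBX3 and LPHN3 with 6. The strongest RORA site scored 527 in intron 1 with 4 WREs. None of the 6 LPHN3 sites scored over 78.1, and none of the sites of EFNA5, TBX3 and LPHN3 held a WRE.

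Genes of the Wnt pathway and the colon crypt were taken from 7 lists with 140 genes in all. A new site was nearest to 69 of the 140 (49.3%), against 17.2% of all 20056 protein-coding genes, and a 0 h peak to 23 (16.4%), against 6.76%. Within 50 kb of the TSS the counts were 52 (37.1%, background 11.6%) and 12 (8.57%, background 4.02%). With a score of 100 or more they were 29 (20.7%, background 3.29%) and 1 (0.714%, background 0.0997%). The lists were written with earlier results of these data known, and these shares are given without a test.

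Motif and repeat content differed with score among the sites of the list genes as it did among all new sites. The 36 new sites with a score of 100 or more held a WRE in 23 cases and lay in an Alu element in 0. Of the 70 weaker new sites, 9 held a WRE and 40 lay in an Alu, and of the 26 0 h peaks of these genes, 1 held a WRE and 17 lay in an Alu. Over all new sites, 52.1% of the 921 with a score of 100 or more held a WRE and 5.32% lay in a SINE, against 9.22% and 58.6% of the 4586 weaker ones.

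**Figure D5:**
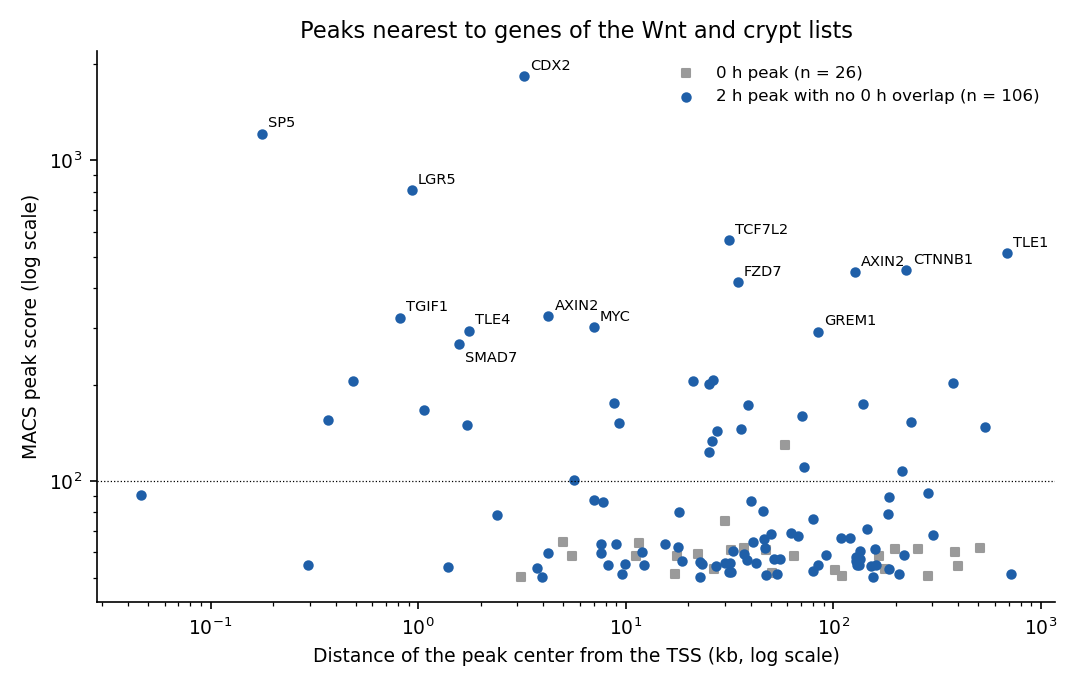
MACS peak score (vertical axis, log scale) against the distance of the peak center from the TSS in kb (horizontal axis, log scale) for the 106 new 2 h sites (blue) and 26 0 h peaks (gray squares) nearest to a gene of the 7 lists; the dotted line is a score of 100. Of the new sites, 36 lie at or above the line, led by CDX2, SP5 and LGR5, against 1 0 h peak.

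Among 18 feedback regulators and direct targets, 12 had a new site (66.7%, against 17.2% of all protein-coding genes). All 12 of them had one within 50 kb (background 11.6%). New sites with a score of 100 or more were found for 8 (44.4%, background 3.29%). AXIN2, the scaffold that feeds back on β-catenin destruction, had 3 such sites. The first, 127448 bp from the TSS, scored 450 with 5 WREs. The second, in intron 2, scored 327 with 1 WRE, and the third, in intron 1 at 483 bp, scored 206 with 1 WRE and 3 Helper sites. Its only 0 h peak lay in an AluSz element 199305 bp away with a score of 61.3.

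DKK1, a secreted LRP antagonist, had sites at 39031 and 138559 bp that scored 173 and 174. TNFRSF19, a Wnt-induced receptor gene, had a 5′ UTR site that scored 155 with 2 WREs, and the Dishevelled antagonists NKD1 and NKD2 had upstream sites that scored 143 and 101. RNF43, a ubiquitin ligase that removes Frizzled from the membrane, scored 134 in intron 2 without a WRE. Weaker RNF43 sites in the same intron scored 63.5 without a WRE and 55.9 with 1 WRE. Other weaker sites lay near the Wnt deacylase NOTUM (87.2, 1 WRE and 4 Helper sites), ZNRF3 (53.6) and DKK4 (56.5, 1 Helper site, in an AluY element). The secreted Wnt inhibitor gene WIF1 had a site in intron 2 that scored 86.0 with 1 WRE and lay in a dnTCF1Emut 2 h peak, and a second 1395 bp upstream that scored 54.1 without one. The new sites of this gene list thus ranged in score from 53.6 (ZNRF3) to 1213 (SP5), where all 2 h peaks ran from 50.01 to 3218.

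The LEF/TCF genes themselves had new sites in 3 of 4 cases (75%, background 17.2%). TCF7L2, which encodes TCF4, scored 565 in intron 4, and TCF7L1 scored 206 in intron 3, both without a WRE. Further TCF7L2 sites scored 61.3 and 57.2 in Alu elements. A 0 h peak was nearest to 1 of the 4 genes (25%, background 6.76%), TCF7L2, with a score of 50.6 in an AluY element. TCF7, the gene of TCF1, had a site that scored 50.9 in an AluSp element 47435 bp upstream. LEF1 had none.

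Of 26 genes of the β-catenin complex and its co-regulators, 11 had a new site (42.3%, background 17.2%). New sites with a score of 100 or more were found for 5 (19.2%, background 3.29%). TLE1 and TLE4, Groucho co-repressors, scored 514 and 295, the first from 686278 bp and the second in exon 2. CTNNB1, the β-catenin gene, scored 455 with 2 WREs at 225439 bp from its TSS, inside an intron of another gene. AXIN1 scored 201 in intron 2, and CSNK1A1, the kinase that primes β-catenin, scored 150 in intron 2 with a WRE. The sites of GSK3B (50.4) and APC (51.4) lay in a MER11A and an AluSx3 element. No 0 h peak with a score of 100 or more was assigned to any of these genes. Such peaks were rare, with 20 of all 20056 protein-coding genes (0.0997%) assigned one, so their absence from 26 genes says little.

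Among 34 ligand and receptor genes, 13 had a new site (38.2%, background 17.2%). New sites with a score of 100 or more were found for 3 (8.82%, background 3.29%). FZD7, a Frizzled receptor gene, had sites at 34670 and 35777 bp from the TSS that scored 418 and 145. WNT16 scored 208 with none of the motifs, and the co-receptor gene LRP5 scored 176 in intron 1 with 1 WRE and 1 Helper site. The share of this list with a strong site, 8.82%, was the second lowest of the 7 lists. A 0 h peak was nearest to 6 of the 34 genes (17.6%, background 6.76%), so this list stood above its background at both times. LRP5 was among the 6, with a 0 h score of 64.5 at 5007 bp from the TSS.

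The BMP and TGF-β list had new sites in 13 of 20 genes (65%, background 17.2%) and strong sites in 7 (35%, background 3.29%). SMAD7, the inhibitory SMAD, scored 268 with 2 WREs in intron 2 of a SMAD7 transcript, 1573 bp upstream of the TSS of another SMAD7 transcript, and TGIF1 scored 324. GREM1, a secreted BMP antagonist, scored 293 without a WRE. TGFBR2 had sites that scored 202 and 152, ID2, a BMP-induced inhibitor of bHLH factors, 159 and 111, SMAD3 152 and BMP4 107. Positions ran from 820 bp (TGIF1) to 378512 bp (TGFBR2) from the TSS. A 0 h peak was nearest to 3 of the 20 genes (15%, background 6.76%), TGFBR2 among them, where it scored 61.3 at 47650 bp.

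In the cell-cycle and growth list, 7 of 18 genes had a new site (38.9%, background 17.2%). New sites with a score of 100 or more were found for 3 (16.7%, background 3.29%). MYC scored 302 at 7022 bp from the TSS with 1 WRE and 1 Helper site, in a region covered by a dnTCF1Emut 2 h peak but not by a 9 h dnTCF1EWT peak. PLK2 scored 167 in exon 2 and IER3 123, each with 1 WRE. CCND1, the cyclin D1 gene, had sites that scored 60.5 and 59.1, both in Alu elements, at 134079 and 92806 bp upstream.

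Crypt identity genes had new sites in 10 of 20 cases (50%, background 17.2%), but CDX2 was the 1 gene with a score of 100 or more. A 0 h peak was nearest to 6 of the 20 (30%, background 6.76%), and 1 of the 20 had one with a score of 100 or more. The strong share was thus 5.0% at each time, beside 3.29% of all protein-coding genes at 2 h and 0.0997% at 0 h. The sites of EPHB2 (54.8), SOX9 (54.8), SOX4 (60.3), CD44 (56.7) and JAG1 (52.2) held no WRE. EPHB3 was assigned a peak at both times, with a score of 129 at 0 h and 72.6 at 2 h, the highest 0 h score of any list gene.

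Overlap with the other lists separated the new sites from the 0 h peaks as well. Of the 994 stronger new sites, 470 (47.3%) were covered by a dnTCF1EWT 9 h peak and 374 (37.6%) by a dnTCF1Emut 2 h peak. For the top 1000 0 h peaks the same shares were 9.50% and 0.200%. A dnTCF1Emut 0 h peak covered 0.905% of the new sites and 0.200% of the 0 h peaks. The 470 sites covered at 9 h had a median 2 h score of 235, and the 524 that were not covered had 144. The lists are of different lengths, which sets how much overlap each can give.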

How the data were processed

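The peak lists came from ChIP-seq of DLD-1 cells with anti-FLAG beads. The submitters' processing notes name CASAVA 1.8.2, Bowtie2 2.0.0, MACS 1.3 and HOMER 3.16 and the build hg19. The authors pooled the duplicates of a condition before peak calling, and HOMER assigned each peak the nearest TSS, an annotation class and motif positions. The deposited peak score is the MACS score, not normalized between lists, and the GC content was deposited as a fraction of bases. Depth is not given in the lists, and 0 columns were left unmapped.

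Peaks were split by any overlap with a 0 h peak. Shares were compared between the new peaks of the 2 h top 1000 and the 0 h top 1000 with a two-sided Fisher's exact test (SciPy 1.17.1), adjusted by Benjamini-Hochberg over 18 shares. Stratified odds ratios are Mantel-Haenszel estimates. The code was tested on simulated data. The genes named are the 15 highest new peaks, the 15 highest within 2 kb of a TSS, list genes with a new peak of score 100 or more or within 5 kb, shared peaks of score 100 or more, the 5 highest 0 h peaks and the genes with the most new peaks (6 because of a tie). Other list genes were named after their values were seen. The members and lists were chosen with earlier results of these data known. No hg19 genome was used here, and promoters and gene counts came from RefSeq (GRCh38.p14). Entrez identifiers of 99.2% of the 2 h peaks matched that table. Alternatives were another rank limit, all peaks, a score of 100, other overlap rules, and strata of GC or length. Strata of both together, peaks outside repeats and peaks without chromosome Y were added after seeing the data. The analysis used Python 3.11.15, pandas 2.3.3 and statsmodels 0.14.6.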

Additional observations from a re-analysis of the deposited data

How the results depend on the processing

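No paired analysis was possible because each condition is 1 pooled list. The WRE odds ratio stayed above 1 and past the threshold under every alternative run, from 3.27 over all peaks to 14.4 without peaks that overlap a dnTCF1Emut 0 h peak. With a score of 100 or more, where the 0 h list holds 33 peaks, new sites numbered 921 and list genes with a new site 29, the odds ratio was 1.11 for the Helper site, 2.36 for the short Helper site (adjusted p = 0.0974, Fisher's exact test) and 0.766 for promoters, and 2 of 14 annotation and repeat classes passed, against 8. Outside annotated repeats the odds ratio was 1.81 for the Helper site and 1.29 for promoters. The 7 repeat classes are empty there by construction, and the 2 classes that passed, transcription termination sites (TTS, 0.197) and 3′ UTRs (0.147), were not among the 8. The cause of the other changes was not tested.

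Classes whose odds ratio changed side were as follows. Outside repeats, intergenic regions gave 1.03 and TTS 0.197. At a score of 100 or more, exons and TTS gave 0.387 each and LTR 1.10. SINE, LINE, low-complexity repeats and 3′ UTRs also changed side there, with 49, 60, 1 and 4 of 921 new sites against 0 of 33 0 h peaks. With 0 peaks on that side they have no odds ratio and are outside the counts below. Over all peaks TTS gave 0.984, LTR 1.06 and DNA transposons 0.919. In strata of GC content 3′ UTRs gave 1.5 and DNA transposons 0.658, and in strata of length 3′ UTRs gave 2.10 and LTR 1.39. In strata of both, TTS gave 0.850, 3′ UTRs 3.59 and LTR 1.07. DNA transposons gave 0.663 in the top 500, 0.959 without dnTCF1Emut 0 h peaks and 1.00 without chromosome Y. The TTS value outside repeats passed the threshold (Fisher's exact test, adjusted p = 0.00345). Of the other values of single classes, 86 kept their direction and their side of the threshold, 11 no longer passed it and 2 newly passed it. Unknown depth limits every comparison of list sizes and scores.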
